A study of Homo sapiens with 60 samples.

Results

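The proteasome subunit genes were followed in HT29, a human cell line from a colorectal adenocarcinoma with epithelial features, after 24 h with water extracts of medicinal herbs. Members were protein-coding genes whose symbol is PSMA, PSMB, PSMC or PSMD and a number, without the immunoproteasome genes PSMB8, PSMB9 and PSMB10, with a group mean of at least 1 CPM (counts scaled to a common library size) in any group. Of 60675 identifiers in the table, 34 met this rule, and all 34 passed the filter on low counts. PSMA8 and PSMB11 stayed under 1 CPM in every group, 42 matching identifiers were not protein coding, and PSMC3IP, whose symbol only begins so and which encodes no subunit, was left out. Cells received one of 7 extracts: Saposhnikoviae Radix or Menthae Herba, each a single herb, or a mixture (Guibi-tang, Saengmaek-san, Okbyeongpung-san, Soyo-san or Soshiho-tang). Doses were 500 µg/mL, called high here, 100 µg/mL (medium) and 20 µg/mL (low). Every extract and dose had 3 libraries, save Soshiho-tang with 1 library a dose. The 3 vehicle libraries came from cells given DMSO, at 0.1% per the sample characteristics and at a higher share per the design text. This difference was not settled here. The sample characteristics give no DMSO share for treated libraries, so whether a comparison with vehicle also compares DMSO was not tested.

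The proteasome breaks down proteins that carry ubiquitin chains. Its core is a barrel of alpha and beta rings: the alpha subunits form the gate, and PSMB5, PSMB6 and PSMB7 carry the active sites that cut peptide bonds. A regulatory particle caps the barrel, with a base of ATPases (the PSMC genes) that unfold substrates and push them in, and a lid of PSMD subunits, among them PSMD14, the enzyme that removes ubiquitin. Cells keep subunit transcripts in balance, and the transcription factor NFE2L1 raises many of them together when proteasome activity is short. Colon cancer cells, like other fast-growing cells, depend on this turnover.

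Depth was 19.5 to 41.9 M counts a library (M, mega; median 29.2 M), and 17049 genes were tested. Of 10 markers of colon epithelium, 9 reached a mean of 1 CPM (CDX1 did not). Their summed level was 10700 to 14600 CPM over all libraries and 11100 to 11700 CPM in vehicle. Of 5 markers each, fibroblasts had 1 at a mean of 1 CPM or more (COL1A1), leukocytes 2 (CD68 and LYZ) and endothelium 1 (PECAM1). The leukocyte markers summed to 1230 to 1680 CPM over all libraries, and LYZ had a mean of 1427.5 CPM in vehicle. The sums were 1.4 to 3.29 CPM for fibroblasts and 1.06 to 2.26 CPM for endothelium. No marker was at 0 in all libraries. The share of counts from mitochondrially encoded genes was 12.8% to 13.5% in vehicle and 9.74% to 13.9% in treated libraries, and the part of this difference in the results was not tested. The labels do not state that replicate libraries are separate cultures, so a p-value here reflects only how far these libraries spread, and that spread may be technical. In bulk RNA a change in the make-up of the culture and a change in RNA per cell cannot be told apart. The libraries also parted along their numbering: 31 earlier-numbered and 29 later-numbered libraries lay on either side of 0 on the first principal component, and the parts were cut there. The vehicle and both single herbs have only earlier numbers, and Soyo-san, Okbyeongpung-san and Soshiho-tang only later ones. Both parts hold libraries of Guibi-tang and Saengmaek-san, and only these 2 extracts inform a model term for the part, called the order term here. Each comparison of Soyo-san or Okbyeongpung-san with vehicle therefore also compares later with earlier libraries, and the counts of members called there are given with and without this term.

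The stretches before the start of 4 genes are shown because the results turn on these genes. The rises named next are those of the fit without the order term. PSMC3 rose with Soyo-san, Okbyeongpung-san and Guibi-tang, and PSMD3 with Soyo-san and Okbyeongpung-san. PSMD12 rose with Soyo-san, Menthae Herba and Saengmaek-san, and PSMB5, a catalytic subunit, with Menthae Herba. Promoter sequences were found for 29 of the 34 members in RefSeq tables (build GRCh38.p14), and only parts free of annotated exons are printed, 5′ to 3′ on the gene's strand. Capitals mark matches to CCAAT, the box bound by the factor NF-Y (ATTGG on the other strand), and to TGACNNNGC, the core of the antioxidant response element that NFE2L1 and NFE2L2 can bind.
PSMC3, chr11:47426474-47426689, minus strand: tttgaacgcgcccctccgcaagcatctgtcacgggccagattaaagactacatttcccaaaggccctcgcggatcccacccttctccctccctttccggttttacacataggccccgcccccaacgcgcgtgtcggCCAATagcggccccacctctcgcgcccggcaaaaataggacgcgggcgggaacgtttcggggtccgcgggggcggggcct
PSMD3, chr17:39980557-39980796, plus strand: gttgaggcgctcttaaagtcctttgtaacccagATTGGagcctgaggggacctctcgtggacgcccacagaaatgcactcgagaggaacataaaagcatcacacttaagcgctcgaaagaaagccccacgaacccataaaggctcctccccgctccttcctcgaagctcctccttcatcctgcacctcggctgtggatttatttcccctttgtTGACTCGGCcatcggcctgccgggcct
PSMD12, chr17:67366628-67366827, minus strand: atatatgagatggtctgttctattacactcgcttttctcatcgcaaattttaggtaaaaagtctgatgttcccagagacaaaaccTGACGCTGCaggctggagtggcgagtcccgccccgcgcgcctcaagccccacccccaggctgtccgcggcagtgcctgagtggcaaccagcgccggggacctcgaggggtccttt
PSMB5, chr14:23035231-23035470, minus strand: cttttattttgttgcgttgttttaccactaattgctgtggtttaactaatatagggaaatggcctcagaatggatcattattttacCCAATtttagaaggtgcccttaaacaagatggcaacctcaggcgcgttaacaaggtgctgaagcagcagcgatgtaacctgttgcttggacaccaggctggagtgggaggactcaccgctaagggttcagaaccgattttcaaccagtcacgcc
Over the 250 bases before the start and on both strands, 14 of the 29 member promoters (48.3%) held CCAAT and 5 (17.2%) held TGACNNNGC. Of 35116 promoters searched alike, 32.0% held CCAAT and 10.9% held TGACNNNGC. Neither motif holds the other, and PSMB3 and PSMD3 held both. A match is a description of the letters and not of binding.

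Soyo-san at the high dose raised more subunit genes than any of the other 17 extract and dose groups in the fit without the order term; with the term it raised 9, and Menthae Herba at the high dose 12. Against vehicle, 13 of 34 rose and 0 fell at an adjusted p under 0.05, where 14.5% of all genes passed in either direction and 8.03% were higher. The median log2 change of the members was 0.15, that of all genes tested 0.0030, and 31 of 34 members were above 0, as were 50.7% of all genes. The values of 25 members lay wholly above vehicle, as in 19% of all genes. Those of 2 members lay wholly below it, for which the share of all genes is not reported here. All 18 comparisons with vehicle share the same 3 vehicle libraries, so a low or high vehicle library enters each of them.

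All 6 base ATPases rose. PSMC3, an ATPase whose tail docks in the alpha ring, stood at 115, 114 and 111 CPM in the vehicle libraries and at 153, 154 and 145 CPM with Soyo-san. The groups did not overlap, and the lowest Soyo-san library lay far above the highest vehicle library. The difference was 0.41 ± 0.057 (log2 ± SE; adjusted p = 1.68e-06). PSMC4, another of the ring of ATPases, stood at 129.8, 133 and 125 CPM in vehicle and 158, 159 and 146 CPM with Soyo-san, again without overlap. It rose by 0.26 ± 0.055 (log2 ± SE; adjusted p = 0.00115). The other ATPases rose less: PSMC6 by 0.22 ± 0.066, PSMC5 by 0.18 ± 0.058, PSMC1 by 0.17 ± 0.049 and PSMC2 by 0.15 ± 0.049 (log2 ± SE). In the lid, 3 of 8 members rose. PSMD3, a scaffold subunit of the lid, stood at 165, 163 and 159 CPM in vehicle and at 194, 189.7 and 177 CPM with Soyo-san, with no overlap. Its change was 0.21 ± 0.037 (log2 ± SE; adjusted p = 1.35e-04). PSMD12, also a lid scaffold, rose by 0.21 ± 0.044 (log2 ± SE; adjusted p = 7.95e-04), and PSMD14, the deubiquitinase, by 0.17 ± 0.052 (log2 ± SE; adjusted p = 0.0174). Of the base non-ATPases, PSMD2, a scaffold that receives shuttle factors bringing ubiquitinated proteins, stood at 259.9, 248 and 243 CPM in vehicle and 289, 275 and 259 CPM with Soyo-san. The groups overlapped by 1 library, and the change was 0.13 ± 0.043 (log2 ± SE; adjusted p = 0.0288).

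Of the alpha ring, 2 of 7 members rose, PSMA3 and PSMA6, which form part of the gated ring. PSMA3 stood at 70.8, 73.1 and 72.0 CPM in vehicle and 86.3, 79.8 and 80.9 CPM with Soyo-san, with every treated library above every vehicle one, a change of 0.20 ± 0.061 (log2 ± SE; adjusted p = 0.0254). PSMA6 changed by 0.15 ± 0.049 (log2 ± SE; adjusted p = 0.0338). Of the beta subunits without an active site, 1 of 4 rose: PSMB4 stood at 116, 117 and 113 CPM in vehicle and at 135, 132 and 130.2 CPM with Soyo-san, all apart, and rose by 0.20 ± 0.048 (log2 ± SE; adjusted p = 0.00379). Of the 3 catalytic subunits, 0 passed the edgeR test, while 3 of 3 had an unadjusted p under 0.05, as did 28.3% of all genes, and 0 passed DESeq2. PSMB6, the caspase-like subunit, stood at 64.9, 63.5 and 64.4 CPM in vehicle and 74.4, 71.6 and 69.5 CPM with Soyo-san, a difference of 0.16 ± 0.065 (log2 ± SE; adjusted p = 0.0848). PSMB7, the trypsin-like subunit, stood at 129, 122 and 125 CPM and 139.6, 135 and 136 CPM, a difference of 0.13 ± 0.047 (log2 ± SE; adjusted p = 0.0653). Both genes were higher in each treated library than in each vehicle library, by amounts that missed the threshold over all genes. Of the chaperones of base assembly, 0 of 3 passed edgeR's test or DESeq2 and 1 had an unadjusted p under 0.05, PSMD5. PSMD10 had its lowest group mean here, at -0.12 ± 0.065 (log2 ± SE) with an adjusted p of 0.218.

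With the order term, 9 members rose with Soyo-san at the high dose and 0 fell, where 7.16% of all genes passed and 3.92% were higher. The members called were in part others. PSMC3, PSMD3, PSMD12, PSMD14 and PSMD2 were called in both fits, and PSMB5, PSMA2, PSMA5 and PSMD13 only with the term. The change of PSMC3 was then 0.24 ± 0.047 (log2 ± SE; adjusted p = 7.12e-04) and that of PSMB5 0.29 ± 0.064 (log2 ± SE; adjusted p = 0.00267). PSMC4 went to 0.11 ± 0.050 (log2 ± SE; adjusted p = 0.169), and of the 6 ATPases PSMC3 alone passed with the term. PSMD7, PSMD8 and PSMA4, which were not called in either fit, went from 0.16, 0.16 and 0.15 to -0.058, -0.0037 and -0.046, and PSMB1 from -0.013 to 0.13. Leaving out a library also moved the count. It was 6 without replicate 1 or replicate 2 of the high dose, 7 without vehicle replicate 1 and 8 without vehicle replicate 3. PSMC3, PSMC4, PSMD3, PSMD12 and PSMB4 passed in all 6 fits that left out 1 library.

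**Figure D1:**
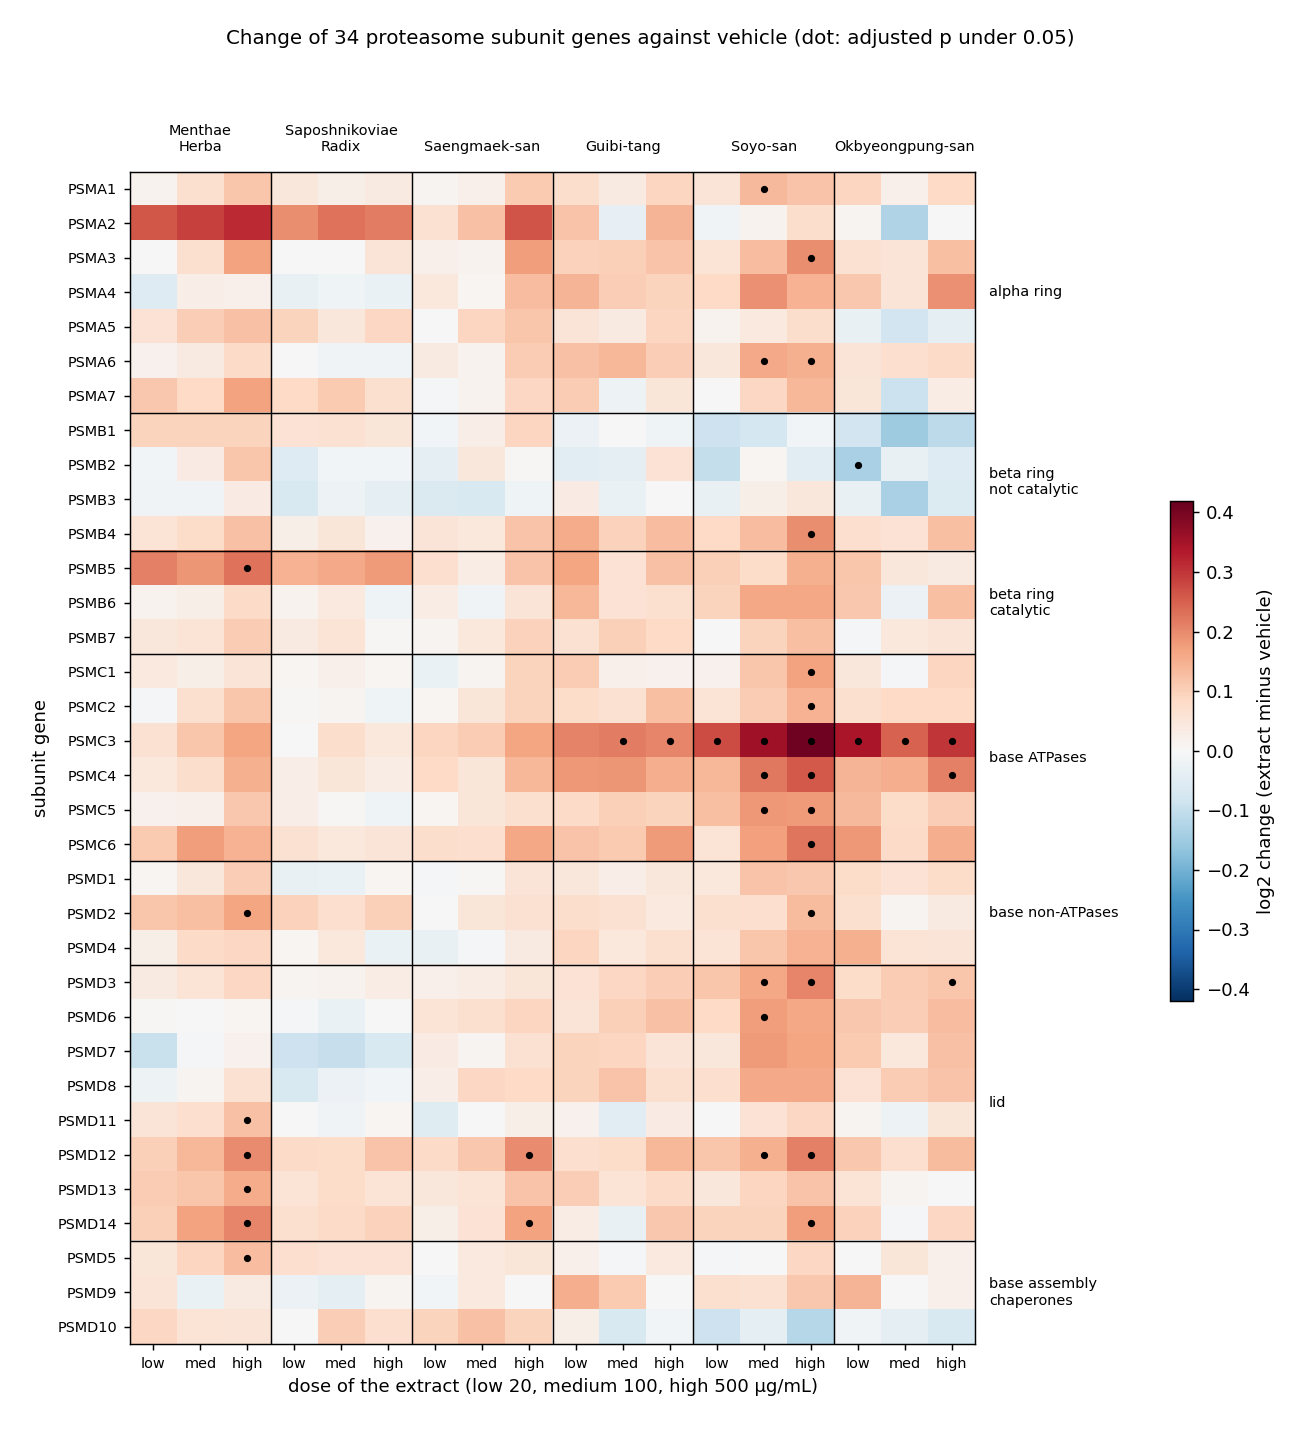
Log2 change of each of 34 subunit genes (rows, by role) against vehicle for 6 extracts at 3 doses (columns), from the fit without the order term; a dot marks an adjusted p under 0.05. PSMC3 has dots in 8 of the 18 columns, and the column of Soyo-san at the high dose holds 13 dots.

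Menthae Herba, whose libraries carry earlier numbers as the vehicle does, gave the other broad change. At the high dose 7 of 34 members rose and 0 fell, where 8.57% of all genes passed and 4.59% were higher. All 34 members had a log2 change above 0, as did 48.8% of all genes, and their median was 0.12 beside -0.0041 for all genes tested. The values of 28 members lay wholly above vehicle, as in 16.6% of all genes. In the lid, 4 of 8 members rose. PSMD14, the deubiquitinase, stood at 78.3, 80.1 and 79.8 CPM in vehicle and at 91.7, 92.3 and 90.8 CPM with Menthae Herba. These groups were far apart beside their spread, and the change was 0.21 ± 0.051 (log2 ± SE; adjusted p = 0.00647). PSMD12 stood at 186, 199.8 and 203 CPM in vehicle and at 225, 227 and 223 CPM with the extract. The treated libraries were close together and all above vehicle, where replicate 1 was lowest, and the change was 0.20 ± 0.044 (log2 ± SE; adjusted p = 0.00217). PSMD13 rose by 0.15 ± 0.051 and PSMD11 by 0.12 ± 0.036 (log2 ± SE), both structural subunits of the lid.

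PSMB5, the chymotrypsin-like active site and the target of the drug bortezomib, was the catalytic subunit that rose. It stood at 62.6, 60.0 and 60.8 CPM in vehicle and at 74.0, 72.6 and 68.4 CPM with Menthae Herba at the high dose. All treated libraries were above all vehicle ones, and the change was 0.23 ± 0.063 (log2 ± SE; adjusted p = 0.0157). PSMB6 and PSMB7 had 0.081 ± 0.064 and 0.11 ± 0.047 (log2 ± SE) and did not pass. The change of PSMB5 was similar at the medium and low dose of this extract, at 0.19 and 0.21, where it did not pass. For the high against the low dose, the largest change of the 3 catalytic subunits was 0.065. PSMB5 was above 0 in 18 of 18 comparisons with vehicle, and vehicle was its lowest group. At the high dose PSMD2 stood at 279, 294 and 270.1 CPM with the extract, all above vehicle, and rose by 0.17 ± 0.042 (log2 ± SE; adjusted p = 0.00804). PSMD5, a chaperone that helps to assemble the base, stood at 81.7, 85.0 and 82.5 CPM in vehicle and at 90.0, 89.9 and 92.5 CPM with the extract. Its groups were apart, and it rose by 0.13 ± 0.040 (log2 ± SE; adjusted p = 0.0347). Of the 7 alpha genes 0 passed edgeR's test, 5 had an unadjusted p under 0.05 (all genes: 22.1%), DESeq2 called 2 (PSMA2 and PSMA3), and the highest, PSMA2, was at 0.31 ± 0.11 (log2 ± SE; adjusted p = 0.0546). PSMA2 had values of 81.4, 82.8 and 85.2 CPM in vehicle and 102, 108 and 99.4 CPM with Menthae Herba, and these do not overlap. Of the 6 ATPases 0 passed edgeR's test, 4 had an unadjusted p under 0.05 and DESeq2 called 1, PSMC3. All 6 were above 0, with PSMC3 at 0.17 ± 0.057 (log2 ± SE; adjusted p = 0.0567).

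Menthae Herba has no libraries in the later part, so the order term left its values nearly as they were and changed the spread. With the term 12 members passed, where 11.6% of all genes did, the 7 above and PSMC3, PSMC4, PSMA2, PSMA3 and PSMB2. When the fit used the earlier numbers alone, 20 passed, where 14% of all genes did, and with DESeq2 11, where 9.13% did. Leaving out single libraries lowered the count to 3 or 2 without replicate 1 or 2 of the high dose, and to 4, 3 and 3 without vehicle replicate 1, 2 and 3. PSMD12 and PSMD14 passed in all 6 of these fits, and PSMD5 in 0.

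**Figure D2:**
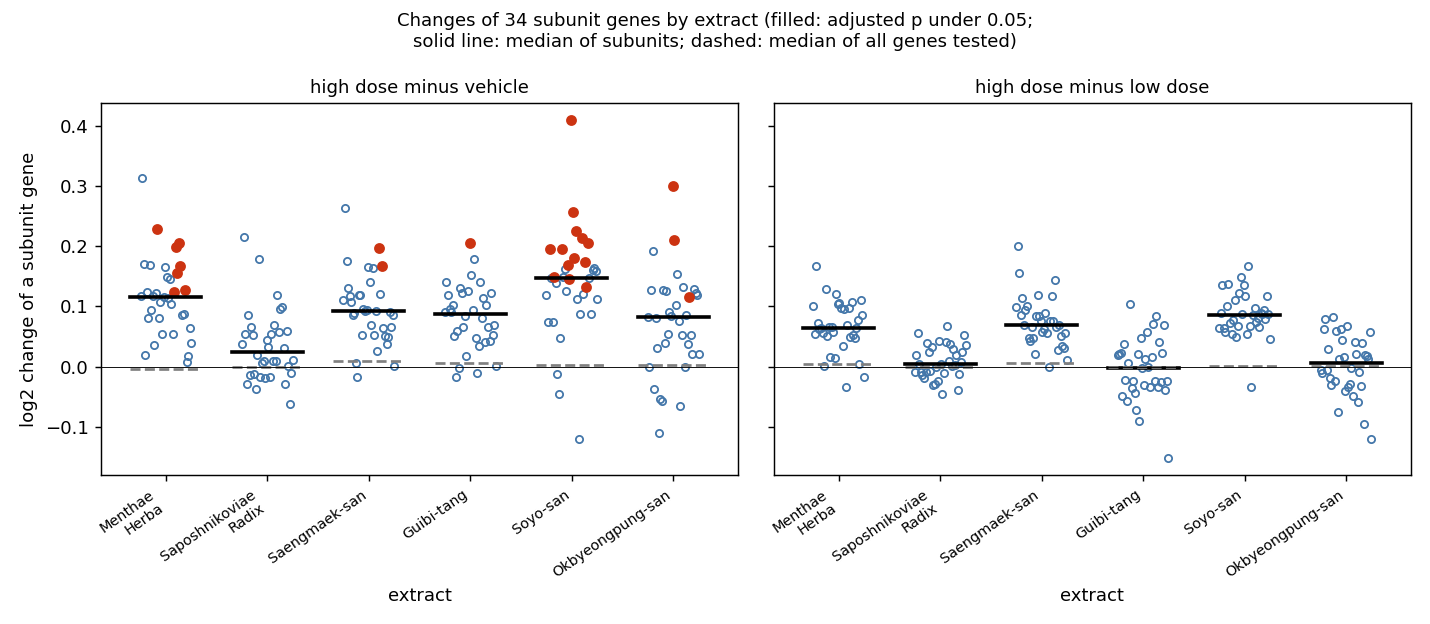
Log2 changes of the 34 subunit genes for the high dose against vehicle (left) and against the low dose (right); each point is a gene, filled where the adjusted p was under 0.05, with lines at the median of the members (solid) and of all genes tested (dashed). Against vehicle the members' medians run from 0.024 (Saposhnikoviae Radix) to 0.15 (Soyo-san), and no point on the right is filled.

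The remaining formulas raised few subunit genes at the high dose. Their counts lay near the share of all genes that passed in either direction, so they are not read as a result about the members. With Saengmaek-san 2 members rose, PSMD12 by 0.20 ± 0.044 (log2 ± SE; adjusted p = 0.00714) and PSMD14 by 0.17 ± 0.051 (log2 ± SE; adjusted p = 0.0479), where 4.28% of all genes passed and 2.39% were higher. PSMD12 stood at 216, 235 and 223 CPM with Saengmaek-san and PSMD14 at 89.3, 93.2 and 85.0 CPM, all above vehicle. The members' median was 0.093, with 33 of 34 above 0 as in 52.1% of all genes. Adding the order term, 4 passed (all genes: 6.39%), PSMA2 and PSMA5 besides. The count was 0 without replicate 2 of the high dose or vehicle replicate 1, and 1 without vehicle replicate 2 or 3. With Guibi-tang PSMC3 rose, at 123, 127 and 143 CPM, by 0.20 ± 0.057 (log2 ± SE; adjusted p = 0.0393), where 2.26% of all genes passed and 1.28% were higher. Replicate 3, the later-numbered library, was the highest. The members' median was 0.088. PSMC3 was again the 1 member called with the order term (all genes: 3.62%), and in the fit that omits the term the call was lost on leaving out replicate 2 or 3 of the high dose or any 1 vehicle library. With Okbyeongpung-san 3 members rose, PSMC3 by 0.30 ± 0.057 (log2 ± SE; adjusted p = 6.32e-04), PSMC4 by 0.21 ± 0.055 (log2 ± SE; adjusted p = 0.0142) and PSMD3 by 0.12 ± 0.037 (log2 ± SE; adjusted p = 0.0454), where 7.4% of all genes passed and 4.36% were higher. PSMC3 stood at 142, 134 and 143 CPM there, wholly above vehicle. The median was 0.082. Given the order term, 0 members passed edgeR's test (all genes: 2.35%), 7 had an unadjusted p under 0.05 (all genes: 14.7%), and PSMC3 was at 0.13 ± 0.047 (log2 ± SE; adjusted p = 0.152). DESeq2, without the term, called 4 (all genes: 8.83%). The count without the term was 1 when vehicle replicate 1 or 3 was left out, and PSMC3 passed in all 6 fits without a library, PSMD3 in 0.

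Saposhnikoviae Radix at the high dose changed 0 members by edgeR's test and 0 by DESeq2, with 4 at an unadjusted p under 0.05. Of all genes 0.499% passed and 11.5% had an unadjusted p under 0.05. The members' median was 0.024 and 24 of 34 were above 0, as were 49.6% of all genes. PSMB5 stood at 66.6, 70.7 and 70.2 CPM with this extract, above each vehicle library, a difference of 0.18 ± 0.063 (log2 ± SE; adjusted p = 0.229). PSMC3 stood at 114, 119.5 and 118 CPM, which overlapped the vehicle values.

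**Figure D3:**
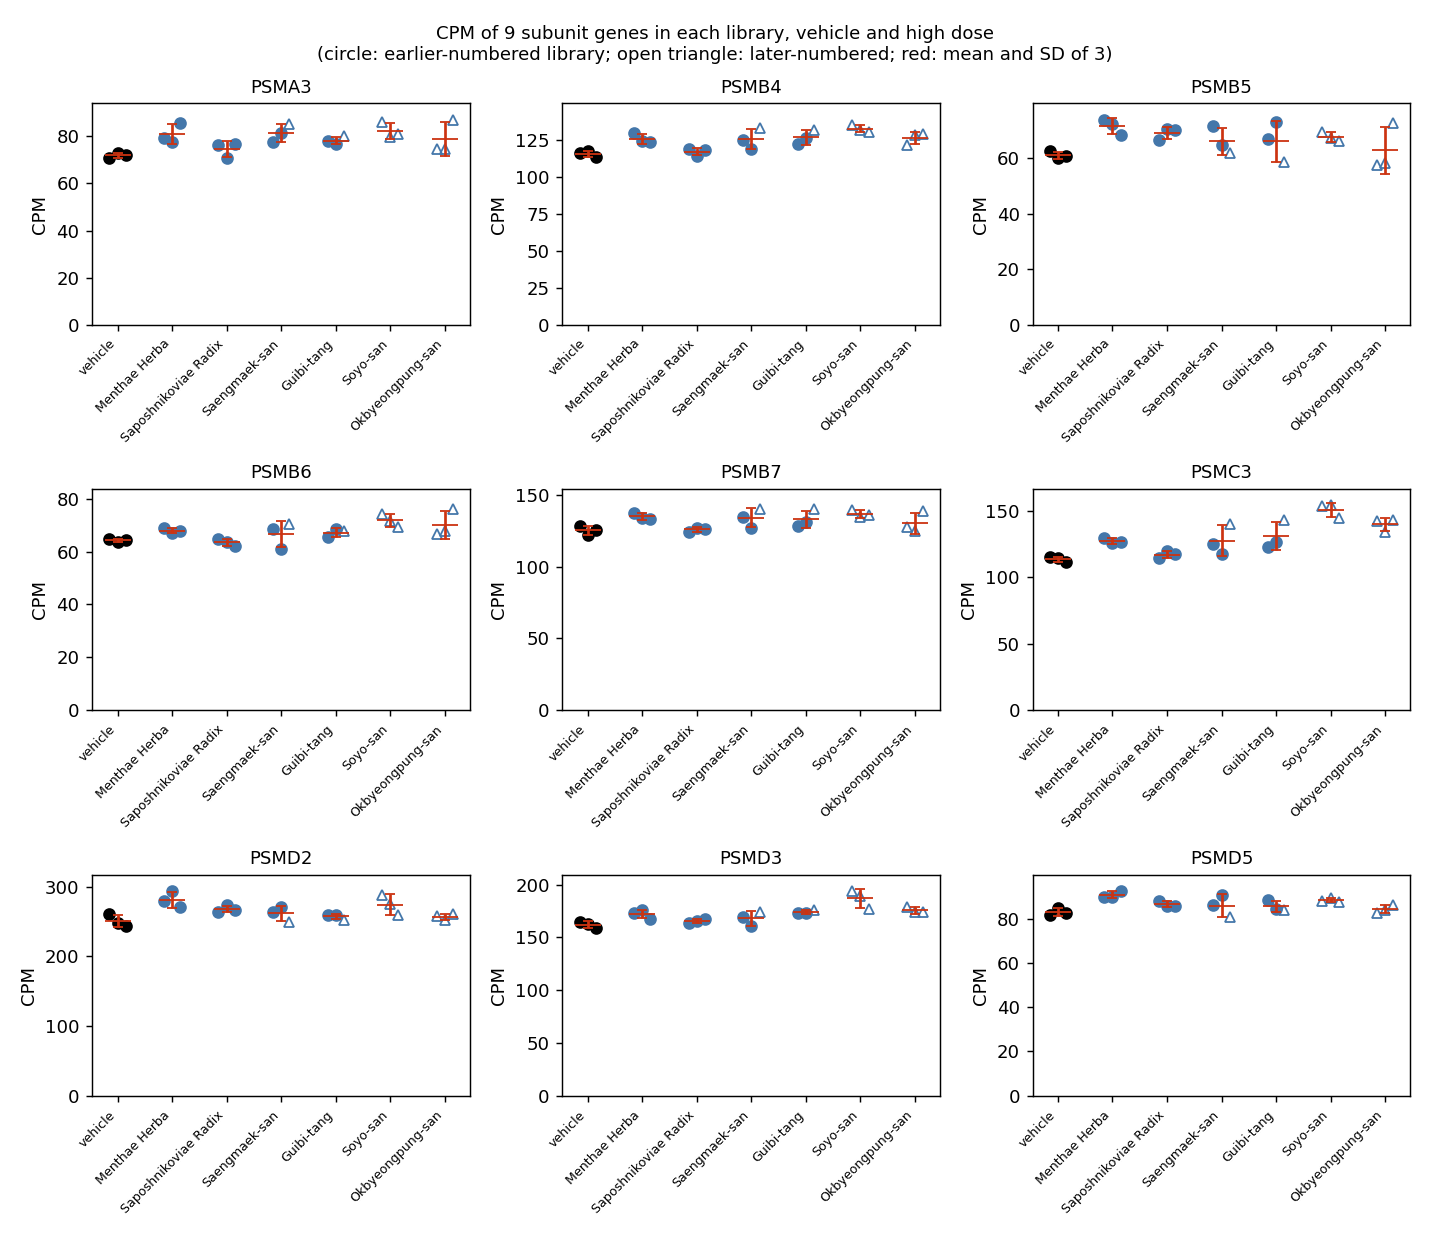
CPM in each library for 9 subunit genes in vehicle and at the high dose of 6 extracts, with the mean and SD of 3 libraries in red; circles are earlier-numbered and open triangles later-numbered libraries, and axes start at 0. In PSMC3 the Soyo-san libraries sit between 145 and 154 CPM, above all vehicle libraries, and in PSMB5 one Okbyeongpung-san library stands apart from the other two.

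At the medium dose, Soyo-san raised 8 members, PSMC3, PSMC4, PSMC5, PSMD3, PSMD12, PSMD6, PSMA6 and PSMA1, where 9.87% of all genes passed and 5.57% were higher. PSMC3 rose by 0.36 ± 0.057 and PSMC4 by 0.22 ± 0.055 (log2 ± SE). Under the order term 2 passed (all genes: 2.97%), and the count was 3 without replicate 1 or 2 of the medium dose or vehicle replicate 1 or 3. PSMC3 and PSMD3 passed in all 6 fits that left out 1 library. Guibi-tang and Okbyeongpung-san each raised PSMC3 alone at this dose, by 0.21 ± 0.057 and 0.25 ± 0.057, where 1.07% and 3.75% of all genes passed. Neither passed with the order term, where 0.809% and 1.96% of all genes did. A single call is not read as a result about the members. For Guibi-tang the count was 2 without replicate 1 of the medium dose and 0 without any other library of the comparison. For Okbyeongpung-san it was 3 without replicate 2 of the medium dose, and 0 without replicate 1 or vehicle replicate 3. That replicate 2 had the lowest summed subunit level of all libraries, 4178 CPM, and mitochondrial genes at 13.7% of its counts. Menthae Herba, Saposhnikoviae Radix and Saengmaek-san changed 0 members at the medium dose by edgeR, with 9, 2 and 1 at an unadjusted p under 0.05 and 2, 0 and 0 called by DESeq2. In these comparisons 0.739%, 0.0293% and 0.416% of all genes passed, and 13.9%, 9.22% and 12.7% had an unadjusted p under 0.05.

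At the low dose, PSMC3 rose with Soyo-san, by 0.27 ± 0.057 (log2 ± SE; adjusted p = 0.00243), and with Okbyeongpung-san, by 0.34 ± 0.057 (log2 ± SE; adjusted p = 8.02e-05), where 3.93% and 8.79% of all genes passed. The members called in these comparisons made up no larger share than that. PSMC3 stood at 143, 142 and 146 CPM in the Okbyeongpung-san libraries, all above vehicle, and both calls held in all 6 fits without a library. PSMB2, a beta subunit without an active site, was the 1 member that fell in any comparison with vehicle, that of Okbyeongpung-san at the low dose. Of all genes 4.05% fell there. PSMB2 stood at 256, 249 and 254 CPM in vehicle and at 237, 225 and 228 CPM with the extract. The groups were apart, and it fell by 0.14 ± 0.042 (log2 ± SE; adjusted p = 0.0287). This call was lost without replicate 2 or 3 of the low dose, without vehicle replicate 1 or 3, and with the order term. With the term, Okbyeongpung-san at the low dose raised PSMC3, PSMB5 and PSMD2 (all genes: 4.94%), and Soyo-san at the low dose PSMB5 and PSMD2 (all genes: 3.9%). Guibi-tang, Menthae Herba, Saposhnikoviae Radix and Saengmaek-san changed 0 members at the low dose by edgeR, with 9, 5, 2 and 0 at an unadjusted p under 0.05. DESeq2 called 1, 0, 0 and 0 of them, and 0.85%, 0.0587%, 0.17% and 0.0938% of all genes passed edgeR's test. At an unadjusted p under 0.05 were 14.2%, 10.7%, 10.7% and 7.53% of all genes. Without replicate 1 of its low dose, the 1 earlier-numbered library of that group, Guibi-tang had 5 members called.

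Over the 18 comparisons with vehicle, 38 of the 612 pairs of a member and a comparison were called higher and 1 lower, where 3.73% of all pairs of a gene and a comparison were called. With the order term 36 were higher and 0 lower, where 2.97% of all pairs were called, and 17 of the 39 called pairs were called in both fits. Without the term, 19 members rose at least once and 14 were never called. Of these 14, PSMA2 and PSMA5 were called with the term and 12 in neither fit. PSMC3 led, with 8 calls (5 with the order term) and a log2 change above 0 in 18 of 18, from 0.0024 (Saposhnikoviae Radix, low dose) to 0.41 (Soyo-san, high dose). PSMD12 was called in 4, and PSMC4, PSMD14 and PSMD3 in 3 each. PSMB5 was called in 1 and, with the order term, in 6. The 14 members never called without the term ranged as follows over the 18 log2 changes of that fit. In the alpha ring PSMA2 ran from -0.13 to 0.31, PSMA4 from -0.053 to 0.19, PSMA5 from -0.081 to 0.12 and PSMA7 from -0.090 to 0.17. In the beta ring PSMB1 ran from -0.15 to 0.094, PSMB3 from -0.13 to 0.047, PSMB6 from -0.024 to 0.16 and PSMB7 from -0.0085 to 0.13. PSMB1, PSMB2 and PSMB3, subunits without an active site, were above 0 in 8, 6 and 4 of the 18, fewer than the other 31 members. In the base, PSMD1, a scaffold, ran from -0.031 to 0.12 and PSMD4, a receptor for ubiquitin chains, from -0.031 to 0.15. In the lid PSMD7, the partner of PSMD14, ran from -0.095 to 0.18 and PSMD8 from -0.064 to 0.16. Of the assembly chaperones, PSMD9 ran from -0.036 to 0.15 and PSMD10 from -0.12 to 0.12.

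Between doses of one extract the subunit genes did not pass the test. At the high against the low dose, edgeR called 0 members for each of the 6 extracts. The members at an unadjusted p under 0.05 were 7 for Menthae Herba, 0 for Saposhnikoviae Radix, 7 for Saengmaek-san, 2 for Guibi-tang, 12 for Soyo-san and 0 for Okbyeongpung-san. DESeq2 called 1 for Menthae Herba and 0 for the others. Of all genes, 2.36%, 0.0293%, 0.0235%, 0.352%, 0.129% and 0.00587% passed, in the same order, and 12.5%, 3.77%, 7.55%, 8.17%, 7.76% and 4.73% had an unadjusted p under 0.05. These comparisons do not use the vehicle libraries, and for Menthae Herba, Saposhnikoviae Radix, Soyo-san and Okbyeongpung-san both doses lie in one part of the numbering. The members' medians were 0.086 for Soyo-san, 0.068 for Saengmaek-san and 0.065 for Menthae Herba, with 33, 33 and 32 of 34 members above 0, while 50.7%, 52.3% and 51.2% of all genes were. For Okbyeongpung-san, Saposhnikoviae Radix and Guibi-tang the medians were 0.0052, 0.0044 and -0.0016, with 17, 20 and 16 of 34 above 0, beside 50.8%, 49.8% and 50% of all genes. The members of smallest p, which did not pass, were as follows. PSMC1 in Soyo-san was at 0.15 ± 0.049 (log2 ± SE; adjusted p = 0.358), PSMD14 in Saengmaek-san at 0.14 ± 0.051 (log2 ± SE; adjusted p = 0.478) and PSMB2 in Menthae Herba at 0.13 ± 0.041 (log2 ± SE; adjusted p = 0.0879). With the earlier numbers alone in the fit, 4 members passed for Menthae Herba, where 4.54% of all genes did.

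Extracts compared directly at the high dose did not differ in any member by edgeR's test over the 57 libraries either. With the earlier numbers alone in the fit, some members passed for Menthae Herba against Saposhnikoviae Radix, as the last section gives. Menthae Herba against Saposhnikoviae Radix, both earlier-numbered, had a median of 0.092 with 33 of 34 members above 0, as were 50.3% of all genes. There 0 were called, 11 had an unadjusted p under 0.05 and DESeq2 called 1, where 1.1% of all genes passed edgeR's test and 9.2% had an unadjusted p under 0.05. The member of smallest p there was PSMB2, at 0.13 ± 0.041 (log2 ± SE; adjusted p = 0.137). Guibi-tang against Saengmaek-san had a median of -0.0064, with 0 members called, 0 at an unadjusted p under 0.05 and 0 by DESeq2, where 0.37% of all genes passed and 5.93% were under an unadjusted 0.05. Soyo-san against Okbyeongpung-san, both later-numbered, had a median of 0.071, with 0 called, 4 at an unadjusted p under 0.05 and 0 by DESeq2. Of all genes 0% passed there and 4.46% were under an unadjusted 0.05.

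The members moved in both directions with the library numbering itself. Since the parts were cut on these libraries, the values are a description. In the later libraries 10 members were past the threshold higher and 6 lower once treatment was allowed for, where 29.6% of all genes were past it (15.9% higher and 13.7% lower), and the members' median was 0.026. Of these members, the 6 base ATPases were all above 0, with a median of 0.096, and 4 passed higher and 0 lower. This role and the genes given here were chosen after their values were seen. PSMD7, a lid subunit, was higher by 0.22 ± 0.028, PSMA4 by 0.19 ± 0.038, PSMC3 by 0.17 ± 0.024, PSMD8 by 0.16 ± 0.029 and PSMC4 by 0.14 ± 0.026 (log2 ± SE). PSMA2, of the alpha ring, was lower, at -0.28 ± 0.050, as were PSMB1 at -0.15 ± 0.034, PSMB5 at -0.14 ± 0.034 and PSMA5 at -0.12 ± 0.028. Values in single libraries are given for the extracts that span both parts, at the high dose only. These extracts alone inform the order term, so the values illustrate it and are no separate support. PSMC3 in Saengmaek-san at the high dose stood at 125, 117 and 140.1 CPM, of which the last is the later-numbered library. PSMA2 stood at 104, 112 and 82.2 CPM in the same libraries and at 95.7, 101 and 77.0 CPM in those of Guibi-tang, where the last is again the later one. At that dose the single later library was highest in PSMC3 and lowest in PSMA2 in both extracts, and both genes were chosen after these values were seen. Within Saengmaek-san, 19 of 34 members were higher in the later libraries (median 0.025), as were 50.7% of all genes (median 0.0025). Within Guibi-tang it was 23 of 34 (median 0.048), beside 49.4% of all genes (median -0.0025).

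**Figure D4:**
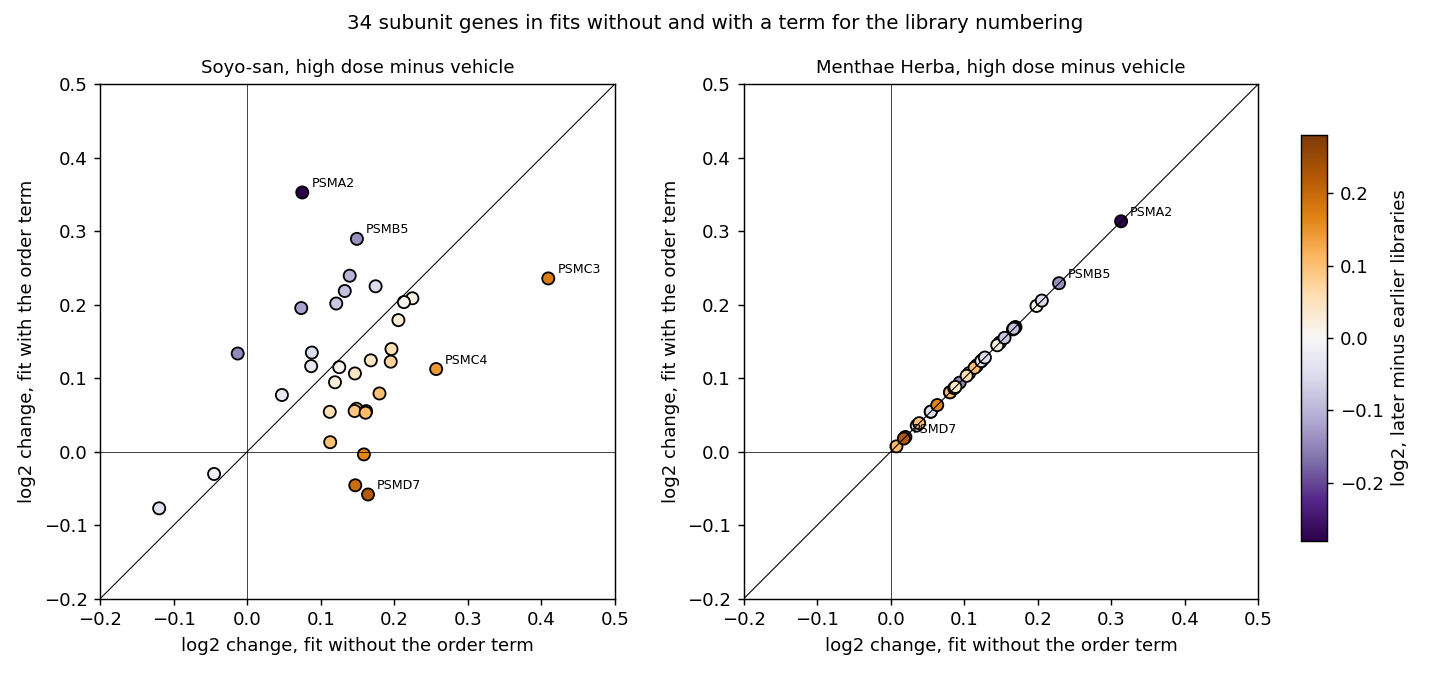
Log2 change of each of 34 subunit genes in the fit without (x axis) and with (y axis) the order term for Soyo-san (left) and Menthae Herba (right) at the high dose; colour gives the difference of later minus earlier libraries, and the diagonal marks equal values. For Soyo-san PSMC3 moves from 0.41 to 0.24 and PSMA2 from 0.075 to 0.35, while the genes stay on the diagonal for Menthae Herba.

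The summed level of the 34 genes was lowest in vehicle, at 4418 ± 10.5 CPM (SD, n = 3), and 55 of 57 treated libraries lay above the highest vehicle library. It was 4795 ± 32.7 CPM with Menthae Herba and 4853 ± 118 CPM with Soyo-san at the high dose, and 4510.1 ± 17.3 CPM with Saposhnikoviae Radix. The vehicle libraries, at 4406 to 4426 CPM, were closer together than those of any other group. The members did not all share this order: vehicle was the lowest group for 9 of 34. The highest group was Soyo-san at the high dose for 12 members, Menthae Herba at the high dose for 11 and Soyo-san at the medium dose for 8. The highest group was 1.36 times the lowest for PSMA2, 1.33 times for PSMC3 and between 1.10 and 1.21 times for the other 32 members.

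**Figure D5:**
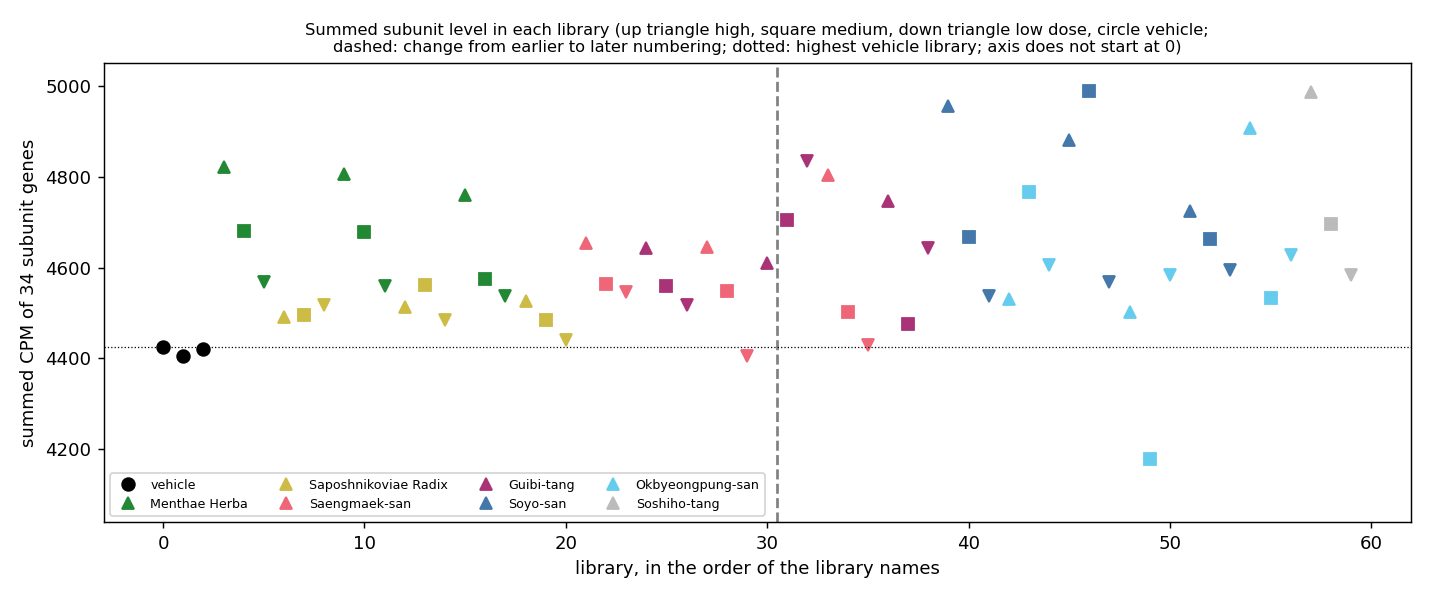
Summed CPM of the 34 subunit genes in each of 60 libraries, in the order of the library names, coloured by extract and shaped by dose; the dashed line marks the change from earlier to later numbering, the dotted line the highest vehicle library, and the y axis does not start at 0. The 3 vehicle libraries lie between 4406 and 4426 CPM, and 55 of 57 treated libraries lie above the dotted line.

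Soshiho-tang had 1 library per dose, so its ratios to the vehicle mean have no replicate check and no test. Its libraries are all later-numbered, as those of Soyo-san are. At the high dose the median log2 ratio of the 34 members was 0.17, beside -0.0020 for all genes. At the medium and low dose the medians were 0.095 and 0.065. PSMC3 stood at 159 CPM at the high, 141 CPM at the medium and 136 CPM at the low dose, all above the vehicle range of 111 to 115 CPM. PSMC4 stood at 169 CPM, 148 CPM and 144 CPM, likewise above vehicle. Both genes were also among the members higher in the later libraries. Of the 34 members, 28, 26 and 23 lay above the vehicle range at the high, medium and low dose. Below it lay 2, 2 and 5, and the shares of all genes are not reported here.

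Around the proteasome, 43 genes in 7 lists were measured: the immunoproteasome, activators and inhibitor, chaperones of core assembly, associated receptors and deubiquitinases, ubiquitin and its activation, the VCP unfoldase, and regulators of subunit transcription. Against vehicle at the high dose 8 of 43 rose and 0 fell with Soyo-san, 6 and 0 with Menthae Herba, 4 and 1 with Saengmaek-san, 3 and 0 with Okbyeongpung-san, and 0 with Guibi-tang and Saposhnikoviae Radix. Of all genes 14.5%, 8.57%, 4.28%, 7.4%, 2.26% and 0.499% passed, in the same order. For Okbyeongpung-san the count was near that share, and for Soyo-san a little above it. The genes named below are therefore single calls and not a result about the lists. With the order term 4 rose and 2 fell with Soyo-san (all genes: 7.16%), and 2 rose and 0 fell with Okbyeongpung-san (all genes: 2.35%). For Guibi-tang and Saposhnikoviae Radix, without the term, 10 and 8 of the 43 had an unadjusted p under 0.05, as did 15.8% and 11.5% of all genes, and DESeq2 called 2 (USP14 and UBA1) and 0. Without the term the median log2 change over the 43 genes was 0.051 for Soyo-san, 0.061 for Menthae Herba, 0.054 for Saengmaek-san, 0.051 for Okbyeongpung-san, and 0.057 for Guibi-tang and 0.016 for Saposhnikoviae Radix, and with it 0.054 for Soyo-san and 0.030 for Okbyeongpung-san. UCHL5, a deubiquitinase that binds the base, rose with Soyo-san by 0.28 ± 0.060, with Okbyeongpung-san by 0.21 ± 0.061 and with Saengmaek-san by 0.21 ± 0.060 (log2 ± SE). USP14, another deubiquitinase of the base, rose with Menthae Herba by 0.17 ± 0.041 and with Saengmaek-san by 0.15 ± 0.041. UBB, a gene that encodes ubiquitin, rose with Soyo-san by 0.26 ± 0.070 and with Okbyeongpung-san by 0.22 ± 0.070. With the order term neither UCHL5 nor UBB passed for Soyo-san or Okbyeongpung-san, and UBB was 0.20 ± 0.030 higher in the later libraries. POMP, the chaperone that matures the core, rose with Menthae Herba by 0.25 ± 0.076 (log2 ± SE; adjusted p = 0.0297). UBQLN1, a shuttle factor, rose with Menthae Herba by 0.18 ± 0.035 and with Soyo-san by 0.11 ± 0.035, but for Soyo-san it did not pass with the order term, at 0.087 ± 0.039 (log2 ± SE). PSMB10, an immunoproteasome subunit, rose with Soyo-san by 0.27 ± 0.084 (log2 ± SE; adjusted p = 0.023), and with the order term as well. NFE2L1, the activator of subunit genes, did not pass in any of the 6 comparisons at the high dose. Its change was 0.045 ± 0.038 (log2 ± SE; adjusted p = 0.481) with Soyo-san and -0.035 ± 0.038 (log2 ± SE; adjusted p = 0.664) with Menthae Herba.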

How the data were processed

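RNA of HT29 cells was sequenced in 60 libraries. Per the submitters' processing notes, the authors used FastQC 0.11.9, Trim Galore 0.6.5, STAR 2.7.3a, RSEM 1.3.3 and the build GRCh38. For the annotation release and strand setting, the sources used here give nothing. The deposited values are expected counts (RSEM estimated counts per gene, 27.7% of those above 0 not whole), and they were rounded before testing. Genes kept by filterByExpr (17049 of 60675, 99.95% of the counts) were scaled by TMM and fitted in edgeR 4.0.16 (quasi-likelihood, robust) over 57 libraries in 19 groups, with 38 residual degrees of freedom. P-values were adjusted by Benjamini-Hochberg over all genes tested in each of 27 comparisons, with a threshold of 0.05. The SE is the log2 change divided by the square root of F. CPM use TMM-scaled library sizes. Symbols matched 56558 identifiers, and gene types came from GENCODE 29. Members, lists and comparisons were chosen with earlier results of these data known. All members are described by role. Full values are given for the 4 members of smallest p that pass at a high dose, and values in every library for PSMB5, PSMB6, PSMB7 and the member of smallest p in each other role. Other genes named were chosen after their values were seen. Values of some genes in the pathway lists are not reported here. Replicates within a group differed by 1.83 to 24.1 times the sampling noise, so none was counted as a repeat. Alternatives were DESeq2 1.42.0, its size factors, no filter, the order term, 1 part of the numbering, the replicate block and leaving out each library. The code was tested on simulated data. The main fit held no term for replicate numbers, so its comparisons are unpaired. In Guibi-tang against Saengmaek-san at the high dose, same-numbered libraries deviated together (correlations 0.144, 0.129 and 0.286). Each of these groups has only its replicate 3 in the later part. Whether the correlations come from pairing or from this split was not tested.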

Additional observations from a re-analysis of the deposited data

How the results depend on the processing

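Counts of subunit genes called against vehicle moved by over 1.5 times as follows, and the cause was not tested. The share of all genes called moved as well. For Menthae Herba at the high dose it was 8.57% without and 11.6% with the order term. It was 14% in 1 part of the numbering and 9.13% with DESeq2. Shares are not given beside each count of this section, so these counts are not read as results about the members. With the order term, Menthae Herba had 12, 1 and 1 called at the high, medium and low dose, Saengmaek-san 4 at the high dose, Guibi-tang 0 at the medium and 1 at the low dose, Soyo-san 2 at the medium and 2 at the low dose, and Okbyeongpung-san 0 at the high and 0 at the medium dose. In 1 part of the numbering alone, Menthae Herba had 20, 7 and 2 at the high, medium and low dose, Saposhnikoviae Radix 2, 2 and 2, Saengmaek-san 9 at the high and 3 at the medium dose, and Guibi-tang 3 at the high dose. There, Menthae Herba at the high dose had 4 called against its low dose and 3 against Saposhnikoviae Radix. With DESeq2, Menthae Herba had 11 at the high and 2 at the medium dose, 1 for high against low and 1 against Saposhnikoviae Radix. DESeq2 called 2 for Guibi-tang at the high and 1 at the low dose, 2 for Okbyeongpung-san at the medium dose and 2 for Soyo-san at the low dose. With no filter on low counts, where more genes are tested, Soyo-san had 8 at the high and 5 at the medium dose, Menthae Herba 1 at the medium and 2 at the low dose, Saposhnikoviae Radix 1 at the high and 1 at the medium dose, Guibi-tang 1 at the low dose and Okbyeongpung-san 1 at the low dose. With DESeq2 size factors Saengmaek-san at the high dose had 1.

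The replicate block moved 1 of 27 counts by over 1.5 times, for Soyo-san at the low dose, to 2. In the comparison where libraries of the same replicate number deviated together, Guibi-tang against Saengmaek-san, 0 were called with the block and 0 without. The block changed none of the 82 calls of named genes.

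When each library was left out in turn, the counts against vehicle at the high dose ran from 6 to 14 for Soyo-san, 2 to 6 for Menthae Herba, 0 to 2 for Saengmaek-san, 0 to 1 for Guibi-tang and 1 to 2 for Okbyeongpung-san. At the medium dose they ran from 3 to 7 for Soyo-san, 0 to 2 for Guibi-tang and 0 to 3 for Okbyeongpung-san. At the low dose they ran from 0 to 5 for Guibi-tang and from 1 to 2 for Okbyeongpung-san. Of the 82 changes of named genes tracked under these alternatives, 2 that had not passed changed sign on leaving out a library: PSMB5 in Okbyeongpung-san at the high dose, to -0.076 without its replicate 3, and PSMB7 in Saposhnikoviae Radix at the high dose, to -0.012 without vehicle replicate 2. Of the 82, 22 lost and 3 gained the call with the order term. With 3 libraries a group and 1 vehicle group in the earlier part, Soyo-san and Okbyeongpung-san cannot be told apart from the numbering without the term. The term carries a shift measured in Guibi-tang and Saengmaek-san over to them, and whether the shift is alike there was not tested.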
